A study of Mus musculus with 24 samples.

Results

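The homeobox genes En1, En2, Gbx2, Irx1, Irx2, Irx3, Irx5, Lmx1a and Lmx1b, regulators of the midbrain and of more posterior neural tissue, were followed through a time course of mouse optic vesicle (OV) organoid differentiation. They were chosen by name, and their 9 entries were taken from a table of 49705 gene entries. The measurements were polyA RNA-seq libraries of Rx-GFP K/I EB5 cells, a mouse embryonic stem cell (mESC) line with a GFP reporter knocked into the Rax locus, so that GFP reports on a gene of the eye field. The 24 libraries form 8 groups of 3 replicates. Live cells were taken without regard to GFP on days 0, 1, 2 and 3, while on days 4 and 5 they were sorted into a GFP-negative and a GFP-positive sample. All groups came from this single line and from the same protocol, in which 4500 cells per well were aggregated on day 0 and Matrigel was added to 2% on day 1, so that the day 0 libraries, whose label gives no treatment, precede it. The labels give 24 organoids pooled per sample. The labels name GMEM with 1.5% knockout serum replacement as the medium, whereas the study's methods name a growth factor-free defined medium for its initial organoids. The GFP-negative gate also took in cells of low GFP, and day 3 cells, a few of which expressed GFP, were not sorted by GFP.

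These genes divide the neural tube along its length and across its width. En1 and En2 encode engrailed repressors of the midbrain and anterior hindbrain, where they are maintained by Fgf8 and Wnt1 from the isthmic organizer at the midbrain-hindbrain boundary. Gbx2 is the hindbrain-side partner of Otx2 in placing that boundary, and is also expressed in naive pluripotent cells. The Iroquois genes Irx1, Irx2, Irx3 and Irx5 mark neural plate posterior to the prospective forebrain, while Lmx1a and Lmx1b encode LIM-homeodomain factors of the roof plate, and of the midbrain floor plate from which dopaminergic neurons arise. The eye field forms in the anterior neural plate, in which these genes are largely silent.

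Values are normalized counts, which are estimated read counts divided by a size factor for each library. Library totals lay between 39849111 and 51587535, and the estimated depth was 36900000 to 54600000 reads. Spearman correlations between replicates were 0.953 to 0.9927 over 24 pairs, and 0.9789 or higher over the 22 pairs without day 0 replicate 1, which stood apart from the other day 0 libraries. Differences are given as log2-fold-changes of normalized count + 1 from limma, GFP-negative minus GFP-positive or later minus earlier day, with a standard error (SE) and a Benjamini-Hochberg adjusted p over 21005 genes. A gene was called where the adjusted p was under 0.001 and the absolute log2-fold-change above 1.5. Rax served as the check of the gates: its GFP-negative replicates held 960, 1018 and 946 normalized counts on day 4 against 9967, 9609 and 9100 in GFP-positive cells, and the ratio of the means was 0.102 on day 4 and 0.0520 on day 5. The gates were thus separated on their own reporter gene, with Rax transcript still present in the GFP-negative libraries.

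The 9 genes lie at 7 places in the mouse genome (mm10), since 2 pairs of Irx genes are neighbours. En1 is at chr1:120602418-120607992, Gbx2 at chr1:89927956-89931179 and Lmx1a at chr1:167689237-167848741. Lmx1b is at chr2:33560965-33640608 and En2 at chr5:28165694-28172166. Irx3 (chr8:91798525-91802067) and Irx5 (chr8:92357625-92376286) are 556 kb apart, and Irx1 (chr13:71957921-71963723) and Irx2 (chr13:72628820-72634198) are 665 kb apart. Of the 9 genes, 8 have the same start and end in the GENCODE M21 annotation, the exception being the end of Lmx1b. Gbx2 and Irx3 each share exon bases with a transcript on the opposite strand, D130058E05Rik and Irx3os. Because the strandedness of the counting is not given in the sources used here, reads of these overlapping pairs cannot be told apart.

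Sequence at the annotated starts was examined because the 9 genes differed between the gates in the same direction. RefSeq promoter windows (GRCm38.p6) were found for 6 of the 9 genes, En1, Gbx2, Irx2, Irx3, Lmx1a and Lmx1b, and the 250 bases before each RefSeq start were searched on both strands for 5 short motifs. These starts are not all those of the loci above: Irx2 has the same start, while the RefSeq start lies 3 (Gbx2), 69 (En1), 321 (Lmx1a) and 413 bases (Irx3) inside the locus given and 490 bases before that of Lmx1b. The windows of Lmx1a and Irx3 are thus wholly within the gene as given above. The Tcf/Lef words CTTTGAT or CTTTGAA, the Otx word TAATCC and the homeodomain word TAATTA were in 0 of the 6 windows, against 7.48%, 6.25% and 4.84% of 32851 windows of all genes. The CCAAT box (CCAAT, or ATTGG on the other strand) was in 3 of 6 windows against 33.8% of all, and the GC box (GGGCGG) in 3 of 6 against 32.7%. GC content of the 6 windows was 56.0% to 68.4%, above the median of 52.4% for all windows. The words were chosen by hand, and a missing word says only that these letters are not in this stretch. With 6 windows, neither the CCAAT box nor the GC box count is read as particular to these genes. The 3 windows with a CCAAT box are printed as examples of this sequence, 5′ to 3′ on the gene's strand, each as its longest stretch outside exons annotated in GENCODE and with each CCAAT or ATTGG in capitals. The window of Lmx1b holds another CCAAT, 236 bases before the start, in the part that is not printed.
En1, chr1:120602237-120602417 (+): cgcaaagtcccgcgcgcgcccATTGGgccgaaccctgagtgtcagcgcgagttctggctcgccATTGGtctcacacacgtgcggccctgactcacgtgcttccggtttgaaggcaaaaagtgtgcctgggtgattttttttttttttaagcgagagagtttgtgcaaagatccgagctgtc
Irx2, chr13:72628570-72628819 (+): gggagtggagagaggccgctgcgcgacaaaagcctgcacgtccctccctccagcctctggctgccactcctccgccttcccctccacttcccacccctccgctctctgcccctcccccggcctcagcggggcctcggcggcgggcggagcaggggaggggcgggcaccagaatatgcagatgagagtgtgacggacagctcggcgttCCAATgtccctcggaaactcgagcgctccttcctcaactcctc
Lmx1b, chr2:33641099-33641192 (-): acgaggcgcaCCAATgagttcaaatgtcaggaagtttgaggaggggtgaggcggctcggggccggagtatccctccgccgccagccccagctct

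The question put to the sorted cells was whether midbrain and posterior regulators differ between the Rax-expressing cells and the rest of the organoid. On each of the 2 days, all 9 genes were called higher in the GFP-negative gate, and in no gene on either day did the GFP-negative and GFP-positive replicates overlap. For comparison, 3.63% of all genes tested were called higher in that gate on day 4 and 4.61% on day 5, and 20.5% and 20.8% had every GFP-negative replicate above every GFP-positive one. The median log2-fold-change of the 9 genes was 3.39 on day 4 and 3.33 on day 5, where the medians over all genes tested were -0.0068 and 0.0017. The GFP-positive mean was 5.26% to 16.4% of the GFP-negative mean on day 4 (median 9.37%) and 9.06% to 13.8% on day 5 (median 10.1%). Since these are bulk samples, fewer cells expressing a gene and less RNA per cell cannot be told apart.

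**Figure D1:**
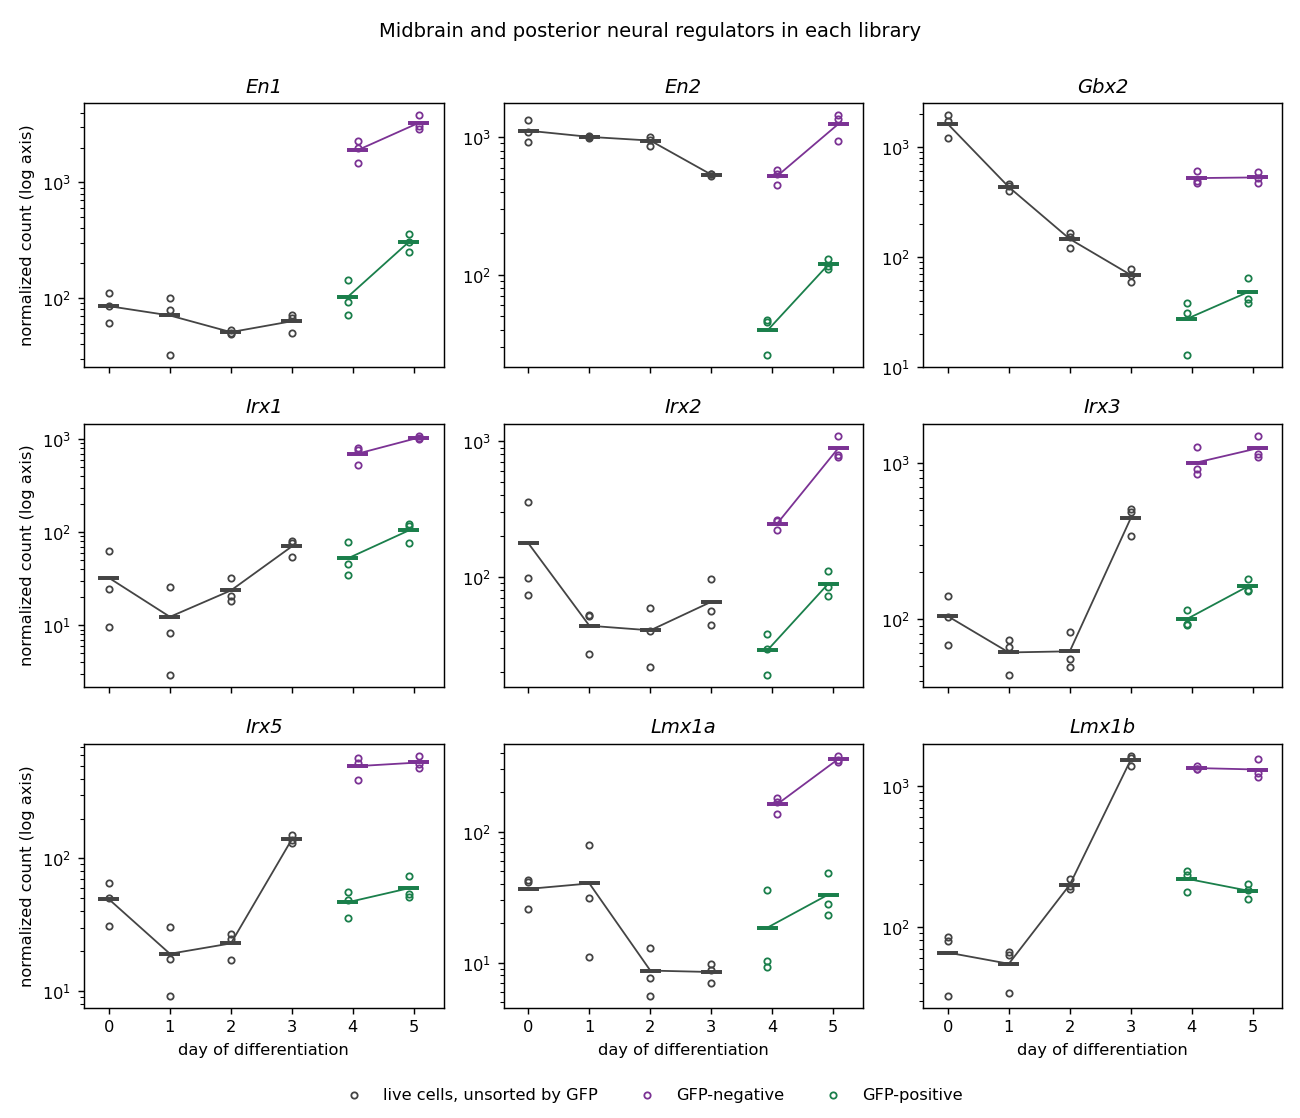
Normalized counts (log axis) of each gene against day of differentiation, with 1 point per library, a bar at the mean of each group of 3 replicates and lines joining the means of unsorted, GFP-negative and GFP-positive cells. In every panel the GFP-negative points of days 4 and 5 lie above the GFP-positive ones, whereas the levels on days 0 to 3 differ from gene to gene.

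The engrailed genes had unlike histories before the sort. En1 was low throughout the unsorted days, with group means of 50.8 to 85.1 normalized counts and no step between successive days called. On day 4 its GFP-negative replicates held 1468, 1967 and 2271 normalized counts against 71.6, 92.5 and 144 in GFP-positive cells. The GFP-negative libraries lay above every unsorted and GFP-positive library of either day. The day 4 difference of En1 was 4.23 (SE 0.32, adjusted p = 6.93e-09). On day 5 En1 held 3800, 2916 and 3101 normalized counts in GFP-negative cells and 308, 361 and 250 in GFP-positive cells, a log2-fold-change of 3.42 (SE 0.32, adjusted p = 9.74e-08). En2, by contrast, was already present in mESCs, at 929, 1329 and 1084 normalized counts on day 0, and stood at 524, 543 and 536 on day 3. Its level in day 4 GFP-negative cells was 447, 544 and 576, overlapping day 3, whereas day 4 GFP-positive cells held 26.1, 46.7 and 45.5. That is the lowest of its 8 groups, and the gate difference was 3.73 (SE 0.19, adjusted p = 1.79e-11). On day 5 En2 held 1347, 942 and 1439 in GFP-negative and 111, 130 and 116 in GFP-positive cells, with a difference of 3.35 (SE 0.19, adjusted p = 9.74e-11). The day 5 GFP-negative libraries of En2 overlapped those of day 0.

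Gbx2 had its highest level in mESCs, with 1932, 1712 and 1194 normalized counts on day 0. Its mean fell to 431 on day 1 (log2-fold-change -1.87, SE 0.29, adjusted p = 0.000188) and to 145 on day 2 (-1.57, SE 0.29, adjusted p = 0.000589). On these steps 0.395% and 0.528% of all genes were called lower, and 0.343% were called higher from day 0 to day 1. The step to a mean of 68.5 on day 3 (-1.07, adjusted p = 0.0157) was not called. The fall from day 0 to day 1 was not called when day 0 replicate 2 or any of the day 1 replicates was left out (adjusted p 0.00106 to 0.00132), and the fall from day 1 to day 2 was not called without any of the 6 libraries compared (0.002 to 0.00512). On day 4 Gbx2 held 467, 604 and 488 normalized counts in GFP-negative cells and 12.8, 30.8 and 38.5 in GFP-positive cells. The gate difference was 4.32 (SE 0.29, adjusted p = 1.01e-09), the largest estimate of the 9 genes, with an interval of 3.72 to 4.92 that overlapped that of En1 (3.56 to 4.91). The day 5 values were 517, 470 and 596 against 41.1, 64.4 and 37.9, with a difference of 3.47 (SE 0.29, adjusted p = 1.46e-08). The overlapping transcript D130058E05Rik followed a like course, with means of 262 normalized counts on day 0, 72.0 in day 4 GFP-negative cells and 8.02 in day 4 GFP-positive cells.

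Among the Iroquois genes, Irx3 and Irx5 were raised before the sort. Irx3 went from 81.9, 54.8 and 48.8 normalized counts on day 2 to 506, 485 and 341 on day 3, a rise of 2.84 (SE 0.26, adjusted p = 4.92e-07). Irx5 went from 17.2, 26.8 and 24.4 to 139, 149 and 131, a rise of 2.58 (SE 0.33, adjusted p = 2.04e-05). Of all genes, 0.714% were called higher on that step. In both genes the day 2 and day 3 libraries did not overlap, but the share of all genes without overlap was not counted for these days. The day 4 values of Irx3 were 849, 917 and 1269 in GFP-negative cells and 91.7, 115 and 92.9 in GFP-positive cells, a gate difference of 3.31 (SE 0.26, adjusted p = 8.91e-09). Those of Irx5 were 394, 525 and 576 against 35.3, 55.9 and 48.8, a difference of 3.39 (SE 0.33, adjusted p = 1.43e-07). In both genes the day 4 GFP-positive libraries lay below those of day 3 and the GFP-negative ones above. On day 5 Irx3 held 1505, 1141 and 1099 normalized counts against 154, 181 and 150 (2.93, SE 0.26, adjusted p = 3.83e-08). Irx5 held 595, 514 and 483 against 51.6, 73.8 and 53.4 (3.15, SE 0.33, adjusted p = 3.11e-07). The opposite-strand transcript Irx3os was at means of 39.5 and 3.06 normalized counts in the day 5 gates, and its own difference was not called (3.75, adjusted p = 0.00178).

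Irx1 and Irx2 were not called on the step from day 2 to day 3. Irx1 was at 32.1, 18.2 and 20.8 normalized counts on day 2 and at 80.7, 76.6 and 53.8 on day 3, and its estimate (1.55, 95% confidence interval 0.39 to 2.71, limma adjusted p = 0.0671) missed the threshold. Irx2 overlapped between these days (0.72, adjusted p = 0.326). In day 4 GFP-negative cells Irx1 held 522, 768 and 806, and in GFP-positive cells 34.4, 45.1 and 77.7, so that the GFP-positive libraries overlapped day 3 while the GFP-negative ones did not. The difference was 3.77 (SE 0.56, adjusted p = 3.82e-05). On day 5 Irx1 held 1090, 1005 and 1019 against 121, 117 and 75.8, a difference of 3.33 (SE 0.56, adjusted p = 0.000143). Irx1 lost the day 5 call with quantile normalization (3.10, adjusted p = 0.00106), without day 5 GFP-negative replicate 1 (3.29, adjusted p = 0.00104) and without day 5 GFP-positive replicate 3 (3.11, adjusted p = 0.00149). Irx2 was at 360 normalized counts in day 0 replicate 1 and at 98.5 and 73.4 in the other day 0 replicates, and at 44.6, 96.7 and 56.2 on day 3. On day 4 it held 223, 259 and 261 in GFP-negative and 18.9, 29.7 and 38.2 in GFP-positive cells (3.11, SE 0.46, adjusted p = 3.83e-05). Irx2 had on day 5 its highest level, 772, 790 and 1101 in GFP-negative cells, against 84.8, 111 and 72.8 in GFP-positive cells (3.30, SE 0.46, adjusted p = 1.63e-05). Its day 4 GFP-negative libraries still overlapped the range of day 0, and those of day 5 overlapped no other group.

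The LIM-homeobox paralogs differed in when they appeared. Lmx1b rose from 66.4, 63.6 and 34.0 normalized counts on day 1 to 217, 194 and 186 on day 2 (1.90, SE 0.28, adjusted p = 5.59e-05; 0.943% of all genes called higher). It rose again to 1576, 1633 and 1394 on day 3 (2.94, SE 0.28, adjusted p = 5.57e-07). The day 3 libraries lay above those of day 4 in both gates and overlapped those of day 5 GFP-negative cells. On day 4 Lmx1b held 1319, 1323 and 1377 in GFP-negative cells and 248, 176 and 235 in GFP-positive cells, a difference of 2.62 (SE 0.28, adjusted p = 4.87e-07), the smallest estimate of the 9. The day 5 values were 1544, 1150 and 1228 against 182, 201 and 158 (2.84, SE 0.28, adjusted p = 1.27e-07). Lmx1a was instead near its lowest level on day 3, at 8.73, 6.98 and 9.70 normalized counts. It then held 138, 168 and 181 in day 4 GFP-negative cells against 9.28, 10.3 and 36 in GFP-positive cells (3.32, SE 0.52, adjusted p = 7.59e-05). GFP-positive replicate 3 was high within its group. In that library 1 read was worth 0.858 normalized counts, and the reason for the high value was not tested. The day 4 call of Lmx1a was lost without GFP-positive replicate 1 (2.99, adjusted p = 0.00102) and in a fit of only the 2 groups compared (adjusted p = 0.00435). On day 5 Lmx1a held 380, 355 and 344 against 23.0, 48.2 and 28.2 (3.47, SE 0.52, adjusted p = 4.03e-05).

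**Figure D2:**
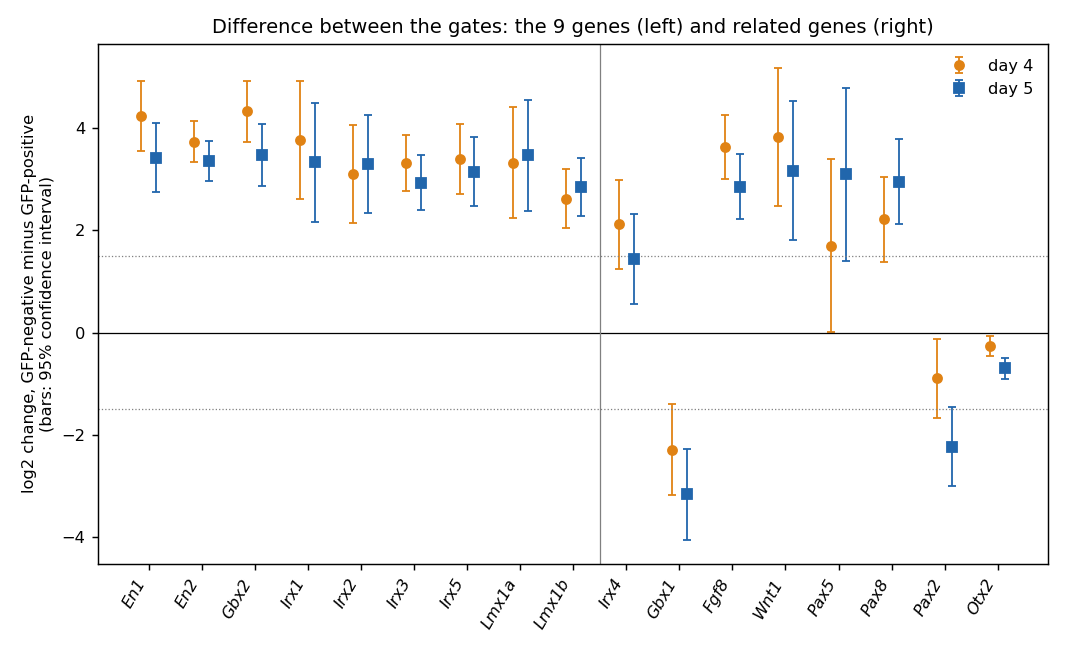
Log2-fold-change between the gates, GFP-negative minus GFP-positive, for the 9 genes (left of the vertical line) and 8 related genes (right) on day 4 (circles) and day 5 (squares), with 95% confidence intervals from limma and dotted lines at the threshold of 1.5. The 9 genes lie between 2.62 and 4.32, while Gbx1, Pax2 and Otx2 lie below 0 on both days.

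Whether the gate difference itself changed from day 4 to day 5 was tested as an interaction, and none of the 9 genes was called by limma, with 1 (Gbx2) at an unadjusted p under 0.05. Of all genes, 3.77% were under that limma p with a negative and 5.63% with a positive estimate. The estimates were negative in 6 genes and positive in Irx2, Lmx1a and Lmx1b. For Gbx2 the difference was smaller on day 5 by -0.85 (95% confidence interval -1.70 to -0.0068, limma adjusted p = 0.528), and for En1 by -0.81 (-1.77 to 0.14, adjusted p = 0.653). Lmx1b was at the other end with 0.22 (-0.59 to 1.03, adjusted p = 0.941). The intervals of Irx1 (-2.08 to 1.20) and Lmx1a (-1.39 to 1.68) both hold a change of 1 on the log2 scale in either direction. Of all genes, 0.0333% were called with a positive and 0.0762% with a negative change of the signed difference, GFP-negative minus GFP-positive.

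The unsorted day 3 cells were compared with each gate of day 4. Since day 3 was not sorted by GFP, a change over time and the removal of the other gate's cells cannot be told apart here. In day 4 GFP-negative cells, En1 (4.89, SE 0.32, adjusted p = 1.13e-09), Lmx1a (4.11, SE 0.52, adjusted p = 7.34e-06), Irx1 (3.29, SE 0.56, adjusted p = 0.000215), Gbx2 (2.90, SE 0.29, adjusted p = 3.36e-07) and Irx5 (1.81, SE 0.33, adjusted p = 0.000385) were called higher than in unsorted day 3 cells. These are 5 of 9 genes, where 2% of all genes were called higher and 0.871% lower. Irx2 (1.97, adjusted p = 0.00394) and Irx3 (1.18, adjusted p = 0.00243) had no call. The day 3 and day 4 GFP-negative libraries of each did not overlap, but the share of all genes without overlap was not counted here. For En2 (-0.04, SE 0.19, adjusted p = 0.93) and Lmx1b (-0.19, SE 0.28, adjusted p = 0.719) the intervals of -0.44 to 0.36 and -0.77 to 0.37 leave out a change of 1.5 in either direction. When day 3 replicate 2 or 3 or day 4 GFP-negative replicate 2 or 3 was left out, Irx1 (adjusted p 0.00105 to 0.00186) and Irx5 (0.00169 to 0.00319) were no longer called, leaving 3 genes. Irx5 also lost this call without day 3 replicate 1 (adjusted p = 0.00208) and against a log2-fold-change of 1 (adjusted p = 0.363). With day 0 replicate 1 left out, Irx2 was called as well (adjusted p = 0.000214).

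In day 4 GFP-positive cells, En2 (-3.77, SE 0.19, adjusted p = 2.07e-12), Lmx1b (-2.81, SE 0.28, adjusted p = 4.4e-08), Irx3 (-2.13, SE 0.26, adjusted p = 1.05e-06) and Irx5 (-1.58, SE 0.33, adjusted p = 0.000509) were called lower than in unsorted day 3 cells. Of all genes, 7.36% were called lower on this step and 3.33% higher. In each of these 4 genes every day 3 library lay above every day 4 GFP-positive library. The share of all genes without overlap was not counted on this step. Between the gates it was 16% to 20.8% in a given direction. Irx5 lost this call when any of the day 3 replicates or day 4 GFP-positive replicate 1 or 3 was left out (-1.40 to -1.63, adjusted p 0.0018 to 0.00483), with quantile normalization (-1.35, adjusted p = 0.00323), under the replicate block (adjusted p = 0.00101) and against a log2-fold-change of 1 (adjusted p = 0.331). Gbx2 missed the size threshold (-1.42, SE 0.29, adjusted p = 0.000444), and was called without day 4 GFP-positive replicate 2 (-1.57, adjusted p = 0.000681) or 3 (-1.72, adjusted p = 9.96e-05). No call was made for Irx2 (-1.14, adjusted p = 0.0571), Irx1 (-0.48, adjusted p = 0.547), En1 (0.65, adjusted p = 0.125) or Lmx1a (0.79, adjusted p = 0.259). The same day 3 libraries enter both comparisons, and the day 4 libraries also give the gate difference, so that these values are not independent of it.

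**Figure D3:**
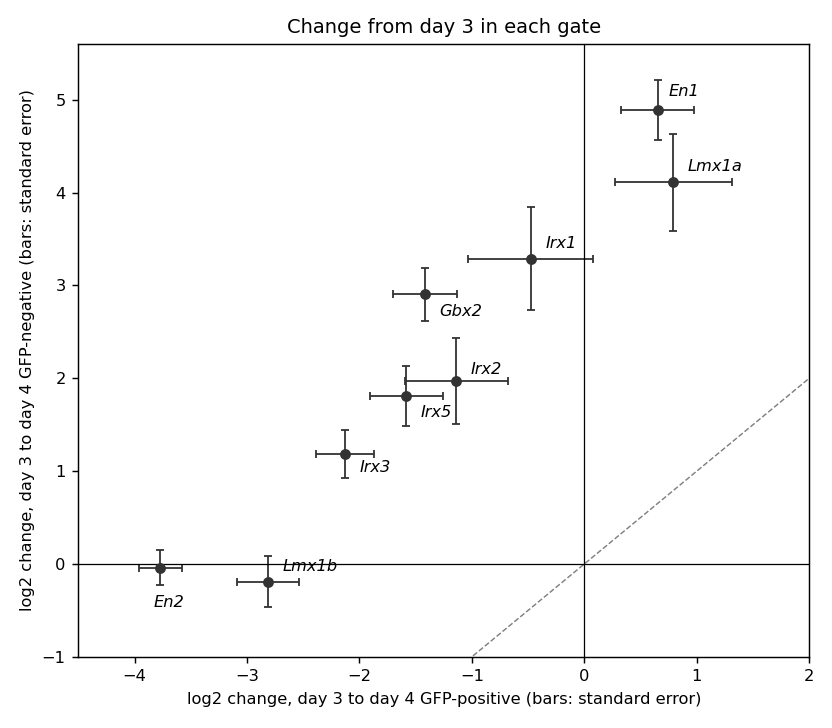
Log2-fold-change from unsorted day 3 cells to day 4 GFP-negative cells (vertical axis) against that to day 4 GFP-positive cells (horizontal axis), with bars of 1 standard error and a dashed line of equal values. En2 and Lmx1b sit near 0 on the vertical axis and at -3.77 and -2.81 on the horizontal one, whereas En1 and Lmx1a sit at 4.89 and 4.11 on the vertical axis and above 0 on the horizontal one; both axes share the day 3 libraries.

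From day 4 to day 5, En2 was the single gene of the 9 to be called. It rose in GFP-positive cells, from 26.1, 46.7 and 45.5 normalized counts to 111, 130 and 116 (1.61, SE 0.19, adjusted p = 6.12e-06), where 0.595% of all genes were called higher and 0.89% lower. Without day 4 GFP-positive replicate 1 the rise was 1.34 and under the size threshold. In GFP-negative cells En2 changed by 1.23 (SE 0.19, adjusted p = 0.000166), also under that threshold. En1 in GFP-positive cells (1.61, SE 0.32, adjusted p = 0.00195) was not called, but was when day 0 replicate 1 (adjusted p = 0.000944) or day 1 replicate 2 (adjusted p = 0.000183) was left out of the shared estimate of spread. Irx2 was not called in GFP-negative (1.82, SE 0.46, adjusted p = 0.0128) or GFP-positive cells (1.63, SE 0.46, adjusted p = 0.0256), but the former was called without day 0 replicate 1 (adjusted p = 0.000873). The remaining estimates lay between -0.05 and 1.15 in GFP-negative and between -0.27 and 1.03 in GFP-positive cells. In the GFP-negative gate 0.762% of all genes were called higher and 0.509% lower on this step, and none of the 9 was called by limma. At an unadjusted p under 0.05 with a positive estimate were 4 of the 9 in GFP-negative cells, against 12.6% of all genes, and 5 of the 9 in GFP-positive cells, against 10%.

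Relatives of these genes did not all behave as they did. Gbx1, the paralog of Gbx2, was higher in GFP-positive cells, with 23.9, 40.3 and 30.9 normalized counts on day 4 against 9.15, 7.32 and 2.34 in GFP-negative cells, and 127, 132 and 157 on day 5 against 13.4, 12.1 and 18.9. The limma differences were -2.29 (SE 0.43, adjusted p = 0.000543) and -3.16 (SE 0.43, adjusted p = 1.14e-05). The day 4 call of Gbx1 was lost without any of 5 of the 6 day 4 libraries (adjusted p 0.00127 to 0.00521) and without a filter on low values (0.00161). On day 4, 0.328% of all genes were called lower in GFP-negative cells, and on day 5 0.4%. Irx4 was called higher in GFP-negative cells on day 4 (2.12, SE 0.42, adjusted p = 0.000913), a call lost when any of 19 libraries was left out, and on day 5 the difference was 1.44 (adjusted p = 0.0201). Its group means reached at most 45.9 normalized counts. Irx6 had group means of 1.21 to 9.12 and was below the filter.

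Genes of the isthmic organizer were taken as a list of 9: Fgf8, Fgf17, Fgf18, Wnt1, Pax2, Pax5, Pax8, Sp8 and Cnpy1. On day 4, 5 were called higher in GFP-negative cells and 0 lower (median log2-fold-change 1.92), and on day 5, 4 were called higher and 1 lower (median 2.86). The day 4 count dropped to 2 without GFP-negative replicate 2 or GFP-positive replicate 1 and to 3 without GFP-negative replicate 3 or GFP-positive replicate 2 of that day. Fgf8, the main signal of the organizer, held 1075, 1444 and 1476 normalized counts in day 4 GFP-negative cells against 78.4, 114 and 131 in GFP-positive cells (3.63, SE 0.30, adjusted p = 2.09e-08), and its day 5 difference was 2.86 (adjusted p = 4.51e-07). Wnt1, which sustains En1, held 491, 578 and 818 against 22.7, 49.5 and 67.0 (3.83, SE 0.65, adjusted p = 0.000187). This day 4 call was lost without GFP-negative replicate 2 or 3 or GFP-positive replicate 1 of that day (adjusted p 0.00106 to 0.00233), with a pseudocount of 0.5 (adjusted p = 0.00175) and with only the groups compared (adjusted p = 0.00108). On day 5 the replicates of Wnt1 did not overlap at 3304, 2687 and 2794 against 302, 387 and 290, although its adjusted p of 0.00119 missed the threshold. Wnt1 was called on day 5 with quantile normalization (adjusted p = 0.000648) or without day 0 replicate 1 (0.00084), among other libraries. In the unsorted groups the means of Wnt1 were 2.99 to 13.7. Cnpy1, a modulator of FGF signalling at the boundary, had the largest called difference of the list on day 5 (3.49, SE 0.37, adjusted p = 3.8e-07).

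The paired box genes of that list went in different directions. Pax8 was called higher in GFP-negative cells on both days (2.21, adjusted p = 0.000363, and 2.94, adjusted p = 1.15e-05). Its day 4 call was lost without any of 4 of the 6 day 4 libraries (adjusted p 0.00248 to 0.00325), with quantile normalization (1.92, adjusted p = 0.00299), with only the groups compared (adjusted p = 0.00313) and against a log2-fold-change of 1 (adjusted p = 0.0883), and its day 5 call with only the groups compared (adjusted p = 0.00124). Pax5 held 2376, 1902 and 2692 normalized counts in day 5 GFP-negative cells against 277, 250 and 276 in GFP-positive cells, a difference of 3.10 (SE 0.81) that was not called (adjusted p = 0.0098). It was called without day 0 replicate 1 (adjusted p = 7.28e-05), in which it was high. Pax2, which marks the midbrain-hindbrain boundary and also the optic vesicle, was higher in GFP-positive cells: 4613, 4363 and 4160 normalized counts on day 5 against 1055, 1039 and 739 (-2.23, SE 0.37, adjusted p = 0.000142). The call of Pax2 was lost without day 5 GFP-negative replicate 3 (-2.06, adjusted p = 0.00156) or GFP-positive replicate 1 (-2.19, adjusted p = 0.00107). Otx2, the forebrain and midbrain partner of Gbx2, was high in both gates, with means of 12731 and 15258 normalized counts on day 4 and 11035 and 17952 on day 5, and was not called (-0.26, adjusted p = 0.0735, and -0.70, adjusted p = 1.7e-05).

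Other neural lists were counted in the same way on day 5. Of 8 roof plate and dorsal neural tube genes, 6 were called higher in GFP-negative cells and 0 lower, led by Pax3 (3.39, adjusted p = 4.38e-08). Of 9 floor plate and midbrain dopaminergic genes 4 were called higher, among them Foxa2 (4.11, adjusted p = 1.76e-08), while Nr4a2, Pitx3 and Th, which mark dopaminergic neurons, were not called. Of these, GFP-positive libraries lay above GFP-negative ones without overlap, as for 17.8% of all genes on day 4 and 16% on day 5, for Th on day 4 (means of 13.8 and 7.79 normalized counts, -0.73, adjusted p = 0.508) and day 5 (means of 18.2 and 4.73 normalized counts, -1.75, adjusted p = 0.0507), for Pitx3 on day 5 (6.83 and 2.65, -1.12, adjusted p = 0.251) and for Nr4a2 on day 4 (234 and 55.8, -2.04, adjusted p = 0.00326). Ddc, a further dopaminergic gene of this list, was not called either and lay the other way without overlap on both days. Its means were 75.1 normalized counts in GFP-negative and 41.9 in GFP-positive cells on day 4, and 85.2 and 48.9 on day 5. Of all genes, 20.5% on day 4 and 20.8% on day 5 lay in that direction without overlap. Among 8 hindbrain genes, 6 were called higher, with Hoxb2 widest apart (4.55, adjusted p = 6.21e-05), and this count dropped to 2 without day 5 GFP-negative replicate 2, to 3 without GFP-positive replicate 1 or 3, and to 1 with quantile normalization or with only the groups compared, where Hoxb2 lost its call (3.84, adjusted p = 0.00102, and 4.55, adjusted p = 0.00186). With only the groups compared the roof plate count was 3. On day 4 the counts were 5 of 8, 2 of 9 and 4 of 8 for these lists, and dropped to 3 roof plate genes and 2 hindbrain genes without GFP-negative replicate 3 or GFP-positive replicate 1, the hindbrain count also without GFP-negative replicate 2. With only the groups compared, the day 4 counts were 1 (roof plate), 1 with 1 lower (floor plate) and 0 (hindbrain). In contrast, 0 of 7 pan-neural genes were called by limma on either day (at an unadjusted p under 0.05, 1 higher and 4 lower on day 4, and 3 higher and 1 lower on day 5, where 16% and 9.67% of all genes on day 4 and 17.3% and 9.03% on day 5 were higher and lower), and of 10 eye field and forebrain genes 6 on day 4 and 7 on day 5 were called lower in GFP-negative cells, Six6 by -4.97 on day 5 (adjusted p = 5.89e-08).

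Markers of other cells were also higher in the GFP-negative gate, beside the 9 genes. All 10 naive pluripotency genes were called higher there on both days, Nr0b1 by 4.26 on day 5 (adjusted p = 2.09e-07), and their summed level on day 5 was 4955 to 5882 normalized counts against 542 to 713. Of 11 mesendoderm genes, 10 were called higher on each day, Sox17 by 4.44 on day 5 (adjusted p = 1.74e-07), with sums of 7039 to 7267 against 801 to 1081. Caudal epiblast genes, which mark the posterior progenitors of spinal cord and mesoderm, were called higher in 6 of 8 cases on day 4 and 7 of 8 on day 5, Cdx2 by 5.39 (adjusted p = 1.82e-08), with day 5 sums of 3979 to 4766 against 283 to 389. Of 11 surface ectoderm and neural crest genes 4 and 3 were called higher, Foxd3 by 3.85 on day 5 (adjusted p = 1.46e-08), with sums of 9292 to 13589 against 4247 to 5253. The largest parts of the GFP-negative sum were Krt18 and Krt8, neither of them called. Their day 5 means were 3957 and 3880 normalized counts in GFP-negative cells, and 1880 and 1074 in GFP-positive cells. Of 5 endothelial genes, 4 of which passed the filter, 2 were called higher on each day. These were Pecam1 and Kdr on day 4, and Tek and Cdh5 on day 5, Cdh5 by 4.38 (adjusted p = 7.2e-07). The day 5 sums were 1402 to 2079 against 726 to 893. The largest part was Kdr, not called on day 5, with means of 1173.5 and 692.9 normalized counts. The day 4 count was 1 without GFP-negative replicate 1 or 3 or GFP-positive replicate 3. With only the groups compared, the day 4 counts were 5 (naive pluripotency), 5 (mesendoderm), 2 (surface ectoderm and neural crest) and 1 (endothelial). None of these other markers was at 0 in all replicates of a day 4 or day 5 group. The GFP-positive mean was a median 6.97% of the GFP-negative mean for mesendoderm genes on day 4, 13.1% for naive pluripotency genes and 9.37% for the 9 genes. On day 5 these medians were 6.89%, 8.67% and 10.1%, and those of the surface ectoderm and endothelial lists were 37.1% and 19.0%. The part of these cells in the level of the 9 genes was not tested.

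**Figure D4:**
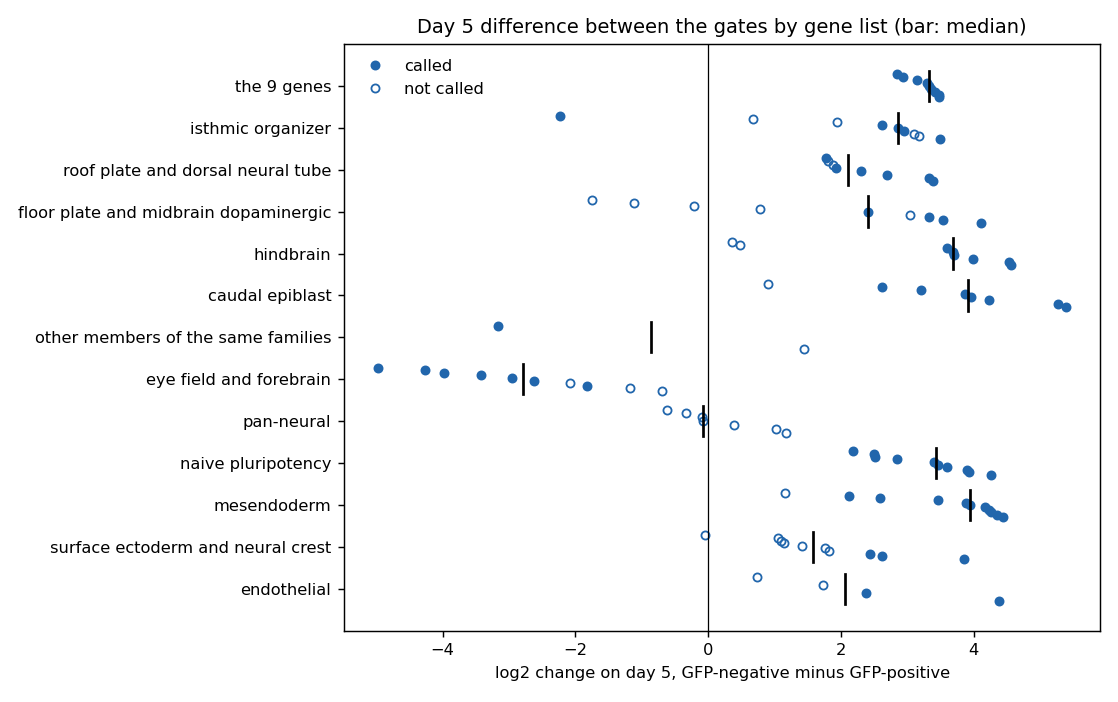
Log2-fold-change on day 5, GFP-negative minus GFP-positive, for the 9 genes and for 12 lists of related or marker genes, with 1 point per gene that passed the filter (filled where called) and a bar at the median of each list. The 9 genes lie between 2.84 and 3.47, eye field and forebrain genes lie below 0, and pan-neural genes lie on both sides of 0 with no call.

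Across the 24 libraries the courses of the 9 genes were alike to different degrees, given here as Pearson correlations of log2(normalized count + 1), which share libraries, scaling and groups and carry no test. Over 36 pairs r ran from -0.147 (Gbx2 with Lmx1b) to 0.979 (Irx3 with Irx5), with a median of 0.670. The neighbouring Irx3 and Irx5 were the most alike pair, whereas En1 and En2 had an r of 0.100 and En2 and Irx1 of 0.006. The other neighbouring pair, Irx1 and Irx2, had an r of 0.786, below that of Irx1 with En1 (0.917), which lies on another chromosome. Among all genes tested, the 3 most like En1 were Defa30 (0.960), Unc5c (0.955) and the dorsal midline ligand Wnt3a (0.951). En2 was closest to F2 (0.966), Pdzd3 (0.963) and Hnf4a (0.960). Gbx2 was closest to the isthmic ligand Fgf17 (0.954), its overlapping transcript D130058E05Rik (0.948) and B4galt1 (0.933).

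The Iroquois pair on chromosome 8 had common neighbours. After each other, both Irx3 (0.960 and 0.946) and Irx5 (0.962 and 0.961) were closest to Fgf8 and to the mesoderm and caudal progenitor factor T. Irx1 was closest to Foxf1 (0.957), Rspo3 (0.944) and Fam181b (0.941), and Irx2 to the midbrain homeobox gene Dmbx1 (0.925), Bmp2 (0.923) and Man1a (0.920). For Lmx1a the nearest were Hoxd3 (0.913), Irx4 (0.913) and Pdgfra (0.904). Lmx1b, with its peak on day 3, was closest to C130021I20Rik (0.946), Tnfrsf1a (0.932) and Tgfbr3 (0.927).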

How the data were processed

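PolyA RNA-seq of 24 libraries was used, 3 for each of 8 groups that were taken, like the replicate numbers, from the sample labels. Reads were pseudo-aligned by the authors with kallisto 0.43.1 (version from the submitters' processing notes) to an Ensembl index of coding and non-coding transcripts, mouse build 38 (mm10), and they divided the abundance estimates by DESeq2 size factors. The values they deposited are thus a normalized signal (normalized counts) per gene, not whole counts: 45.7% to 76.4% of low values (up to 20 reads) lay within 0.1 of a multiple of what 1 read was worth, too few for whole reads to be recovered, and count models were not run. Depth limits mostly low genes, where 1 read was worth 0.8025 to 1.397 normalized counts. The authors' own columns of gene calls in the table were not used.

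Values were analysed as log2(normalized count + 1) for 21005 genes that reached 10 in 3 or more libraries, with limma 3.58.1 in R 4.3.3 (mean-variance trend, all 24 libraries in 1 fit), in place of the authors' DESeq2 test; the median residual SD was 0.308. Adjusted p-values are Benjamini-Hochberg values within each contrast. The procedure was also run on simulated normal values with planted differences. These hold no outlying library and no low counts in whole reads, so the run is not used as support for the calls. The study describes its replicates as biological triplicates. Tables were handled with Python 3.11.15 (numpy 2.4.6, pandas 2.3.3) and drawn with matplotlib 3.10.9. Promoter windows are from RefSeq.

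The genes, the marker lists and the tests were chosen with earlier results of these data known. Named genes are the 9, Rax, 9 fixed relatives (Fgf8, Wnt1, Pax2, Pax5, Pax8, Irx4, Irx6, Gbx1 and Otx2), the called gene with the largest day 5 difference in each direction of each list, and the 3 genes most correlated with each of the 9. Irx3os, Nr4a2, Pitx3, Th, Ddc, Krt8, Krt18, Pecam1, Kdr and Tek were named after their values were seen. Alternatives covered the pseudocount (0.5, 5), the filter (none, 50), quantile normalization, eBayes without trend, a replicate block, only the groups compared, other call rules, and leaving out each library in turn. Deviations from the group means were correlated between libraries of the same number (84 pairs of libraries in 28 pairs of groups, mean r of -0.000526). In 1 pair of groups, day 3 with day 5 GFP-negative cells, which are not compared here, all 3 correlations were over 0.1 (0.133 to 0.401). Both gates of a day were sorted from the same organoids, but the sources do not say that a shared number marks a shared pool, so the main fit has no block.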

Additional observations from a re-analysis of the deposited data

How the results depend on the processing

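All 9 gate differences of both days kept their direction under every alternative run, and the count of the 9 genes called higher was 8 to 9 on each day when a library was left out. Some calls between days changed. With only the groups compared, or with limma treat against a log2-fold-change of 1, the counts called lower from day 0 to day 1, higher from day 1 to day 2 and higher from day 4 to day 5 in GFP-positive cells were each 0; treat and eBayes without trend also gave 0 lower from day 1 to day 2. At an adjusted p under 0.05 alone the counts were 3 lower from day 0 to day 1, 2 lower from day 1 to day 2, 2 lower from day 2 to day 3, and 2 (GFP-negative) and 3 (GFP-positive) higher from day 4 to day 5. Leaving out 1 library gave 0 to 1 lower on the steps to days 1 and 2, 3 to 6 higher from day 3 to day 4 GFP-negative cells, 3 to 5 lower to GFP-positive cells, and 0 to 1 (GFP-negative) and 0 to 2 (GFP-positive) higher from day 4 to day 5. Among the lists, leaving out 1 library moved the day 4 counts to 2 to 5 (isthmic organizer), 3 to 5 (roof plate), 2 to 5 (hindbrain), 1 to 2 (endothelial) and 0 to 1 (other family members, each direction; floor plate, lower), and the day 5 counts to 2 to 6 (hindbrain) and 0 to 1 lower (isthmic organizer). With quantile normalization the day 4 counts were 3 (isthmic organizer), 1 (floor plate) and 0 (other family members, higher), and the day 5 hindbrain count was 1. With only the groups compared the day 4 counts called higher were 2 (isthmic organizer), 1 (roof plate), 1 (floor plate, with 1 lower), 0 (hindbrain), 5 (naive pluripotency), 5 (mesendoderm), 2 (surface ectoderm), 1 (endothelial) and 0 (other family members, each direction), and on day 5 they were 3 (roof plate) and 1 (hindbrain). Treat, at an adjusted p under 0.05, gave 3 (isthmic organizer), 3 (roof plate), 1 (floor plate) and 0 (other family members, each direction) on day 4. The day 4 call of Irx4 was also lost with a pseudocount of 0.5, no filter, a filter of 50 and the replicate block. At an adjusted p under 0.05 alone the day 4 counts were 5 higher and 1 lower (floor plate), 4 higher (endothelial) and 3 lower (pan-neural), and the day 5 counts higher were 7 (isthmic organizer), 6 (surface ectoderm), 1 (pan-neural) and 1 (other family members). The cause was not tested.

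Quantile normalization gave a median over all genes of -0.0624 on day 4 and -0.0805 on day 5, against -0.00675 and 0.00169, and 563 higher and 84 lower calls on day 4 and 569 and 106 on day 5, against 763 and 69 and 968 and 84, and turned the uncalled day 4 to day 5 value of Gbx2 in GFP-negative cells to -0.065 (adjusted p = 0.931). With only the groups compared there were 220 and 66 calls on day 4 and 443 and 85 on day 5, and 2365 and 930 and 2576 and 794 at an adjusted p under 0.05 alone. The share of calls that were higher was 91.7% and 92% on days 4 and 5, 76.9% and 83.9% with only the groups compared, and 71.8% and 76.4% at an adjusted p under 0.05 alone. Other reversals were of small, uncalled values when 1 library was left out. Their ranges were, from day 0 to day 1, -0.70 to 0.11 (En1), -0.26 to 0.0019 (En2), -0.90 to 0.46 (Lmx1a) and -0.64 to 0.10 (Lmx1b), and from day 1 to day 2, -0.80 to 0.0066 (En1), -0.49 to 0.22 (Irx2), -0.20 to 0.17 (Irx3) and -0.039 to 0.78 (Irx5). Later ones were -0.22 to 0.32 (Lmx1a, day 2 to day 3), -0.12 to 0.068 (En2, day 3 to day 4 GFP-negative), -0.067 to 0.14 (Gbx2), -0.057 to 0.22 (Irx5) and -0.17 to 0.040 (Lmx1b, all 3 from day 4 to day 5 GFP-negative), and in the interaction -0.031 to 0.46 (Irx2) and -0.45 to 0.48 (Lmx1a). Of 84 pairs of libraries with the same number, 9 had deviations with a correlation over 0.1, among them all 3 pairs of day 3 with day 5 GFP-negative cells (0.133 to 0.401), which are not compared here. Between the gates the correlations were -0.108 to 0.023 on day 4 and -0.075 to 0.147 on day 5. With the replicate block the gates gave 731 higher and 67 lower calls on day 4 and 920 and 81 on day 5, and among the 9 genes only the lower level of Irx5 in day 4 GFP-positive cells than on day 3 lost its call (adjusted p = 0.00101).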
